A study of Mus musculus with 12 samples.

Results

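The genes described here encode the proteins that fold, modify, export, trim and crosslink collagen. They were taken by name from a list of 36 genes covering these steps. Of these names 35 were found among the 15671 genes of the expression table, the missing name, *Leprel1*, being an older symbol of *P3h2*. All 35 genes had a mean of at least 1 FPKM (read fragments scaled to transcript length and library size) over both groups, a level reached by 12121 genes in all. Expression was measured by RNA-seq in Scx-GFP+ cells sorted from forelimbs of embryos at E15.5 (E is the embryonic day), from 3 *Scx*-/- embryos and 3 control littermates. The *Scx*-/- embryos carried the KOMP allele, in which a lacZ cassette stands in place of the coding sequence in all cells. Control and *Scx*-/- embryos came from intercrosses of *Scx*+/-; Scx-GFP mice, and both carried the Scx-GFP transgene, a reporter under *Scx* regulatory sequences. The series' design text calls the controls wild type. The paper names wild-type, *Scx*+/- and *Scx*-/- embryos as sources of sorted cells, and its methods speak of littermate controls. Whether *Scx*+/- embryos are among the controls is thus not clear. Scx binding was measured by ChIP-seq with an anti-FLAG antibody in 3 ChIP and 3 input samples of E13.5 forelimbs from *Scx* Flag/Flag embryos, which express Scx with a FLAG tag, each biological sample being a pool of 10 pairs of forelimbs.

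Scleraxis (Scx) is a basic helix-loop-helix transcription factor of tendon progenitors and tendon cells, and fibrillar collagen is the main product of these cells. Procollagen chains enter the endoplasmic reticulum, where prolines and lysines are hydroxylated and some hydroxylysines receive sugars. Chaperones and prolyl isomerases assist the winding of chains into a helix, and COPII carriers take the rigid molecule to the Golgi. Outside the cell, proteinases remove the propeptides so that fibrils can assemble, and lysyl oxidases start the covalent crosslinks that give tendon its strength.

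The expression file gives 1 value per gene and group, the authors' mean of the 3 samples, with no spread, no count and no depth. The authors' own test of the samples is not used here, so each difference in FPKM below is a description of group means, with no replicate error beside it. A difference was taken as the log2 of mean FPKM + 1 in *Scx*-/- minus the same in control. In sorted bulk cells, fewer cells of a type and less RNA per cell cannot be told apart.

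Most of the collagen-making genes were at high levels, and their means in the 2 groups lay close together. Of the 35 genes, 15 were at or above the 90th percentile of level among the 12121 genes, and 7 exceeded 100 FPKM in control. The threshold for a difference was set at 0.32 on the log2 scale, 25% higher or the same fold lower on this scale. Past it, 0 of 35 genes were lower and 0 of 35 were higher in *Scx*-/-, against 1.32% lower and 1.5% higher among all 12121 genes. The mean was lower in *Scx*-/- for 17 genes and higher for 18, and 23 of 35 differed by no more than 0.1. The lower and upper quartiles of the differences were −0.05 and 0.10 for the 35 genes, and −0.07 and 0.07 for all genes. Closeness of this size was thus not particular to the collagen-making genes. Differences ran from −0.29 to 0.29, and their median was 0.000567 against −0.000356 over all genes, for which the 5th and 95th percentiles were −0.19 and 0.21. With a pseudocount of 0.1 in place of 1, which weighs low genes more, *Pcolce2* passed the threshold as lower and *Colgalt2* as higher. With a pseudocount of 5 both moved towards 0, to −0.19 and 0.18, and *P3h2* (0.23) and *P4ha2* (0.19) were then above *Colgalt2*.

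**Figure D1:**
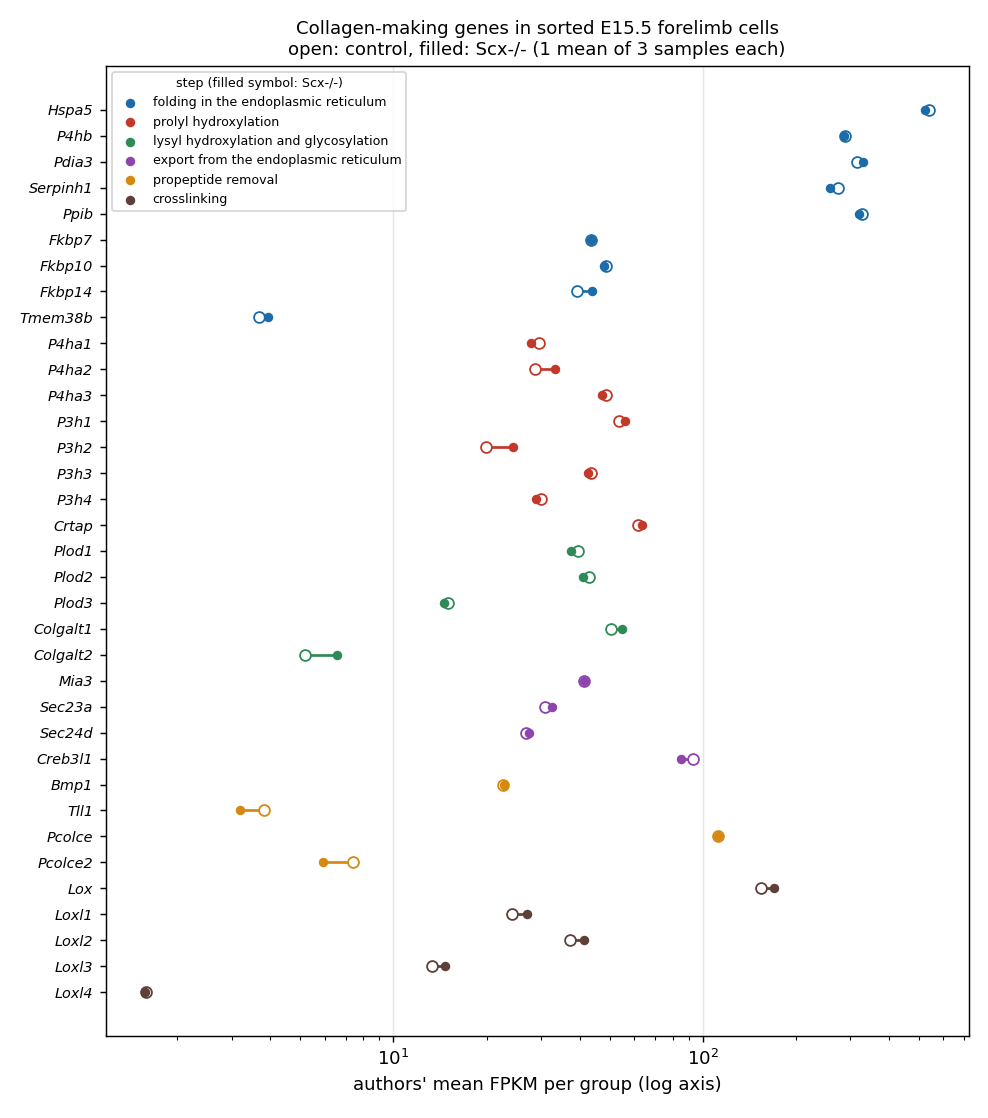
Mean FPKM of the 35 collagen-making genes on a log axis, grouped by step and colour, with an open circle for control and a filled circle for *Scx*-/- (1 authors' mean of 3 samples each, no error available). The circles of most genes touch or overlap, and the gaps visible by eye are at *P3h2*, *Colgalt2*, *Tll1* and *Pcolce2*.

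The general chaperones and isomerases of the endoplasmic reticulum were among the most abundant of the 35 genes. *Hspa5*, which encodes the chaperone BiP, was at 539.8 FPKM in control and 521 FPKM in *Scx*-/-, the 99.5th percentile of level. *Pdia3*, encoding the disulfide isomerase ERp57, was at 316 FPKM in control and 330.0 FPKM in *Scx*-/-. *P4hb*, whose product is both a disulfide isomerase and the beta subunit of prolyl 4-hydroxylase, was at 287 FPKM in control and 286 FPKM in *Scx*-/-. These genes serve many secreted proteins besides collagen, and their differences in log2(FPKM + 1) of −0.05, 0.06 and −0.01 were all within the middle of the distribution, between the 31.5th and the 72.3rd percentile.

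The other genes of the folding step spanned a wide range of levels. *Serpinh1*, encoding the collagen-specific chaperone Hsp47, was at 274 FPKM in control and 258 FPKM in *Scx*-/- (difference −0.09, ratio 0.940). *Ppib*, encoding the prolyl isomerase cyclophilin B, was at 326 FPKM in control and 319.7 FPKM in *Scx*-/-. The remaining isomerases were several-fold less abundant. *Fkbp10*, encoding FKBP65, was at 48.6 and 47.9 FPKM, *Fkbp7* at 43.4 and 43.6 FPKM, and *Fkbp14*, encoding FKBP22, at 39.1 and 43.8 FPKM (difference 0.16) in control and *Scx*-/-. *Tmem38b*, which encodes an ion channel of the endoplasmic reticulum membrane mutated in human osteogenesis imperfecta, was the lowest of the group at 3.67 and 3.93 FPKM. Summed over the 9 folding genes, the level was 1878 FPKM in control and 1854 FPKM in *Scx*-/-, a ratio of 0.987.

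Prolyl hydroxylation makes the helix stable at body temperature, and its genes differed in RNA level. Of the alpha subunits of prolyl 4-hydroxylase, which carry the catalytic site, *P4ha3* contributed 45.5% of the summed FPKM in control and 43.5% in *Scx*-/-. *P4ha3* was at 48.6 FPKM in control and 47.1 FPKM in *Scx*-/-, and *P4ha1* at 29.6 and 27.8 FPKM. *P4ha2* was higher in *Scx*-/-, 33.3 against 28.6 FPKM (difference 0.21, the 95.1st percentile of all differences). The sum of the alpha subunits was 107 FPKM in control and 108 FPKM in *Scx*-/-, so that the lower means of *P4ha1* and *P4ha3* and the higher mean of *P4ha2* offset each other.

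The prolyl 3-hydroxylases modify few prolines, and P3h1 does so in a complex with Crtap and cyclophilin B. *P3h1* was at 53.6 FPKM in control and 56.1 FPKM in *Scx*-/-, and its partner *Crtap* at 61.7 and 63.5 FPKM. *P3h3* was at 43.4 and 42.6 FPKM, and *P3h4*, whose product in mice forms a complex with P3h3 and a lysyl hydroxylase, was at 29.998 and 28.9 FPKM. These 4 genes differed between the groups by −0.05 to 0.06. *P3h2* stood apart from them at 19.96 FPKM in control and 24.3 FPKM in *Scx*-/-, a ratio of 1.22 and a difference of 0.27 at the 97.6th percentile.

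Lysyl hydroxylation prepares the sites for sugars and for crosslinks. *Plod2*, encoding the hydroxylase of telopeptide lysines, was at 43.0 FPKM in control and 41.0 FPKM in *Scx*-/-. *Plod1*, encoding the hydroxylase of helical lysines, was at 39.5 and 37.5 FPKM, and *Plod3*, whose product also has glycosyltransferase activity, at 15.0 and 14.6 FPKM. All 3 means were slightly lower in *Scx*-/-, by 0.04 to 0.07 on the log2 scale, and their shares of the family sum moved by less than a percentage point. Of the galactosyltransferases, *Colgalt1* was at 50.6 FPKM in control and 54.9 FPKM in *Scx*-/-. *Colgalt2* was at 5.20 and 6.57 FPKM, a ratio of 1.26 and a difference of 0.29, the highest of the 35 genes at a pseudocount of 1 and the 97.9th percentile of all genes. *Colgalt1* made up 90.7% of the pair's FPKM in control, so that the larger relative gap was in the gene of lower level.

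The export genes were at like levels in both groups. *Mia3* encodes TANGO1, which loads procollagen into COPII carriers, and was at 41.3 FPKM in each group. The coat genes *Sec23a* and *Sec24d* were at 30.9 and 26.8 FPKM in control and at 32.6 and 27.4 FPKM in *Scx*-/-. *Creb3l1*, encoding the stress-regulated transcription factor OASIS, which promotes collagen secretion in mouse bone, was at 92.7 FPKM in control and 85.3 FPKM in *Scx*-/- (difference −0.12, the 13.7th percentile).

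In propeptide removal the abundant genes had equal means, and the scarce ones were lower in *Scx*-/-. *Bmp1*, encoding the main procollagen C-proteinase, was at 22.7 FPKM in both groups, while its relative *Tll1* was at 3.83 FPKM in control and 3.19 FPKM in *Scx*-/- (difference −0.20, the 4.54th percentile). *Pcolce*, encoding an enhancer of the C-proteinase, was at 112 FPKM in both groups. Its relative *Pcolce2* was at 7.41 FPKM in control and 5.90 FPKM in *Scx*-/-, a ratio of 0.796 and a difference of −0.29, the lowest of the 35 genes and the 1.90th percentile of all genes. The summed FPKM of the 4 genes had a ratio of 0.985.

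Of the 5 lysyl oxidase genes, 4 had a higher mean in *Scx*-/-, and none reached the threshold. *Lox*, which encodes the main crosslinking enzyme, was at 154 FPKM in control and 169.9 FPKM in *Scx*-/-. *Loxl1* was at 24.2 and 27.0 FPKM, *Loxl2* at 37.3 and 41.2 FPKM, and *Loxl3* at 13.3 and 14.6 FPKM. The ratios of these 4 genes lay between 1.10 and 1.11, and *Loxl4* had equal means at 1.58 and 1.57 FPKM. The family sum was 231 FPKM in control and 254 FPKM in *Scx*-/-, a ratio of 1.10, and *Lox* made up 66.9% of it in control and 66.8% in *Scx*-/-. The differences of *Lox*, *Loxl1*, *Loxl2* and *Loxl3* lay between the 86.9th and the 90.5th percentile of all genes. For the other 5 steps the ratio of sums was between 0.974 and 1.03. Within those steps, the galactosyltransferase pair also had a ratio of 1.10.

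**Figure D2:**
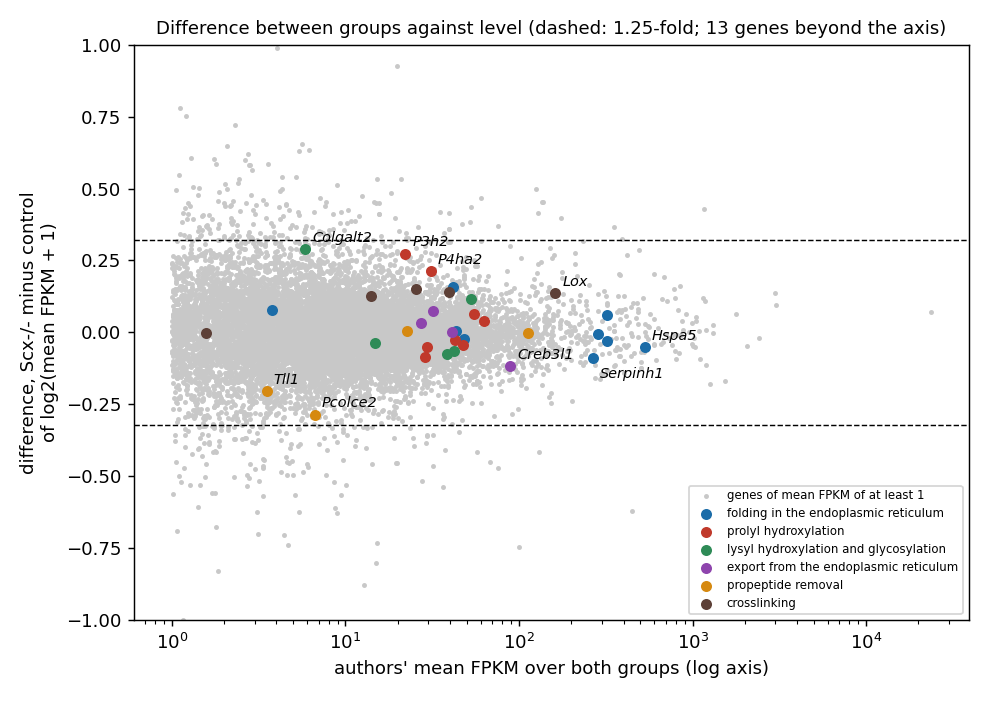
Difference in log2(mean FPKM + 1), *Scx*-/- minus control, against mean FPKM over both groups on a log axis, for 12121 genes in grey (13 lie beyond the axis) and the collagen-making genes in colours by step. All 35 lie between the dashed lines at 0.32 and −0.32, with *Colgalt2* and *P3h2* nearest to the upper line and *Pcolce2* nearest to the lower.

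Other genes of the same pathway, from a list of 93 names, were set beside these 35. Of the 84 with a mean of at least 1 FPKM, 5 were lower and 2 were higher in *Scx*-/- past the threshold, against 1.32% and 1.5% of all genes, and the median difference was −0.01. The list was chosen with earlier results of these data known, so a share above that of all genes can reflect the choice of names. *Fmod*, encoding fibromodulin, a proteoglycan that binds collagen fibrils and lysyl oxidase, was at 84.7 FPKM in control and 22.3 FPKM in *Scx*-/- (difference −1.88). The other 6 were outside the rule for named genes and are named after their values were seen. The collagen genes *Col2a1* (78.3 and 57.1 FPKM), *Col11a1* (87.8 and 63.1 FPKM) and *Col11a2* (6.74 and 2.44 FPKM) were lower in *Scx*-/-. *Sil1*, encoding the exchange factor of BiP, was also lower (7.08 and 4.88 FPKM). *Postn*, encoding periostin, which binds Bmp1 and collagen, was at 986 and 1328 FPKM, and *Tmed2*, encoding a cargo receptor of COPII carriers, at 19.6 and 25.1 FPKM. The main clients of the pathway, *Col1a1* (1333 and 1178 FPKM), *Col1a2* (1249 and 1153 FPKM) and *Col3a1* (1094 and 1189 FPKM), stayed within the threshold. None of the 9 transcription factor genes of the secretory load on the list and 1 of 27 further folding genes passed it, against the same background.

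As a check of the labels, *Scx* itself was at 88.6 FPKM in control and 41.9 FPKM in *Scx*-/-, a ratio of 0.473. By in situ hybridization with a probe for the coding sequence, the paper found no *Scx* mRNA in *Scx*-/- forelimbs at E13.5. The null allele keeps part of the untranslated sequence of the gene, and the part of that sequence in the remaining FPKM was not tested. The sum of the 9 tendon markers was 2125 FPKM in control and 1579 FPKM in *Scx*-/-. *Col1a1* made up most of it (1333 and 1178 FPKM), and only *Tnc* among them was higher in *Scx*-/- (45.0 and 49.2 FPKM). The listed muscle markers summed to 349 and 381 FPKM and the red cell markers to 49.6 and 64.8 FPKM. *Actc1* made up most of the muscle sum (292 and 323 FPKM). *Myod1* (9.89 and 9.41 FPKM) and *Myf5* (2.92 and 2.24 FPKM) were lower in *Scx*-/-, and the other muscle markers were higher. The cartilage markers summed to 111 and 87.9 FPKM, a gap that lay mainly in *Col2a1*. *Acan* was also lower, at 5.47 and 3.74 FPKM, as was *Matn3* at 0.599 and 0.497 FPKM. *Sox9* was at 16.8 and 17.2 FPKM, *Col9a1* at 8.54 and 8.62 FPKM and *Matn1* at 0.761 and 0.796 FPKM. No marker of the 9 cell types found in the table was at 0. *Xist*, which is transcribed in female cells, was at 175 FPKM in control and 24.9 FPKM in *Scx*-/-. The part of other cell types and of the sex of the embryos in the differences above was not tested. By the methods, the authors discarded chromosome Y genes and adjusted their own analysis for sex with the RUVs procedure. No such adjustment was made here, and whether the authors' mean FPKM carry it is not known.

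Scx peaks were common around the collagen-making genes. Each of the 12097 peaks, all 200 bp wide, was assigned to protein-coding genes by the domain around the transcription start site (TSS), which runs from 5 kb upstream to 1 kb downstream and is extended to the neighbouring domains by up to 1000 kb. Of the 35 genes, 23 (65.7%) had an assigned peak, against 47% of genes of at least 1 FPKM. A peak centre lay within 5 kb of the TSS of 16 genes (45.7%), against 25%. Since the genes are highly expressed, they were also set beside genes of at least 10 FPKM. Of the 30 that reached this level, 20 (66.7%) had an assigned peak against 53.1%, 16 (53.3%) had a peak within 5 kb against 33.9%, and 11 (36.7%) had a peak within 1 kb against 30.2%. The gap to the background was wider within 5 kb than within 1 kb, and neither gap was tested. The floor of 10 FPKM did not match the sets in level, as 15 of the 35 genes were at or above the 90th percentile of level. Among all genes the share with a peak within 5 kb was itself higher at this floor, 33.9% against 25% at the floor of 1 FPKM. The part of expression level in the remaining gaps was not tested.

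**Figure D3:**
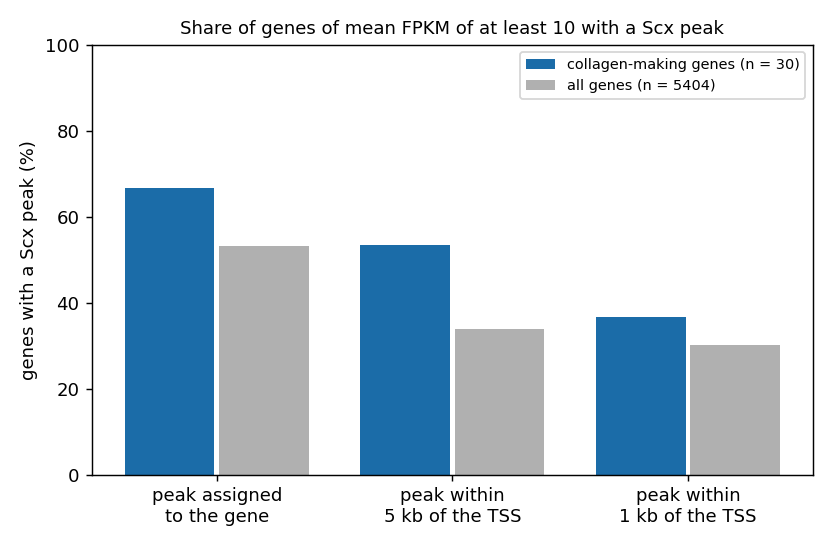
Percentage of genes of at least 10 FPKM with an assigned Scx peak, with a peak within 5 kb of the TSS and with a peak within 1 kb, for the 30 collagen-making genes (blue) and for all 5404 genes (grey). The blue bars are higher in each pair, 66.7% against 53.1%, 53.3% against 33.9% and 36.7% against 30.2%.

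The 23 genes had 58 peaks between them, of which 17 lay within 5 kb of a TSS. By the position of the centre, 32 of the 59 pairs of gene and peak were intergenic, 13 were in an intron, 4 in a coding exon and 10 in an untranslated or noncoding exon. Many peaks could belong to another gene, since 39 of the 58 were also assigned to a gene outside the group, and 39 had the TSS of a collagen-making gene as the nearest. Of the 17 close peaks, 14 had such a TSS as the nearest. The exceptions were the *Pdia3* peak, which was closer to the start of *Catsper2*, the *Fkbp7* peak at the start of *Plekha3*, and the *Plod1* peak next to *2510039O18Rik*.

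**Figure D4:**
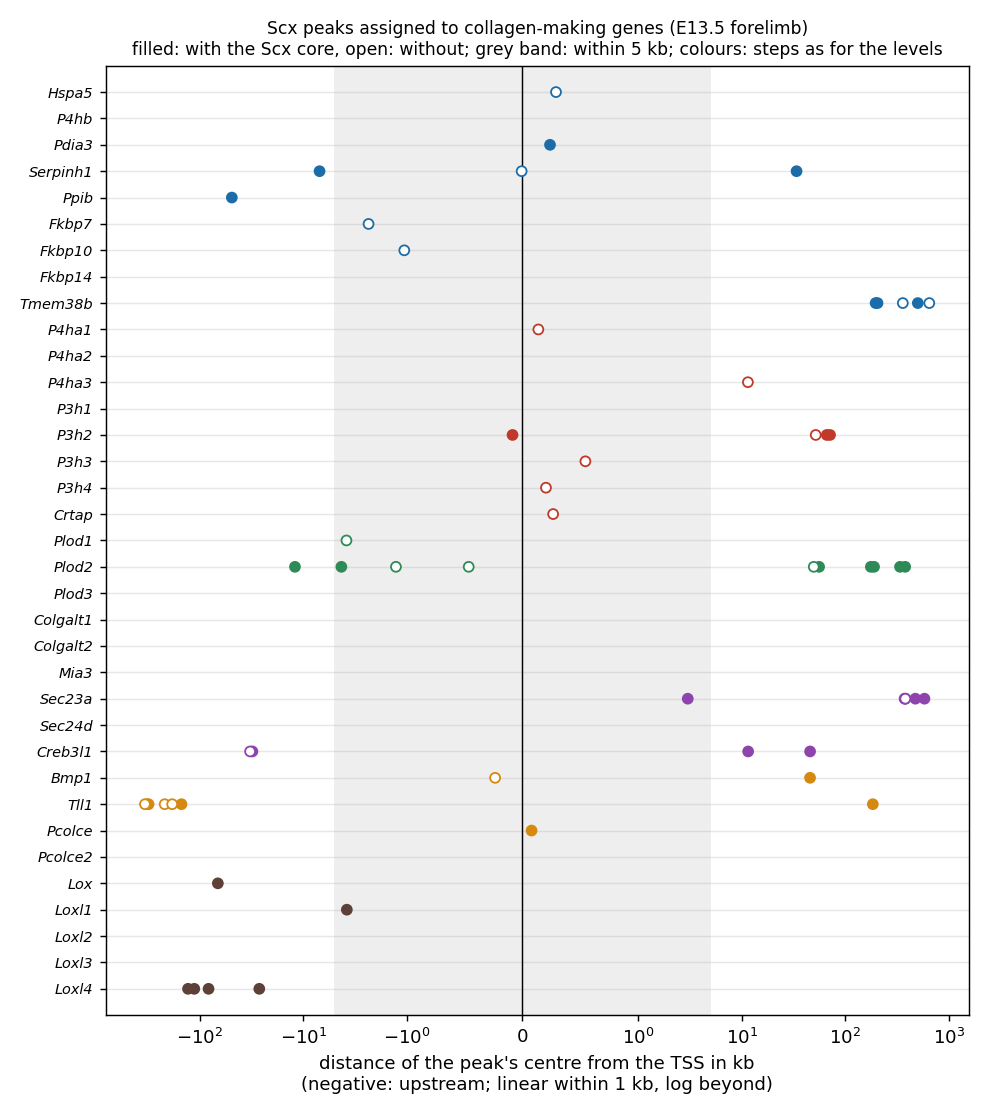
Distance of each assigned peak's centre from the TSS in kb (negative is upstream, linear within 1 kb and logarithmic beyond), with 1 row per gene and colours by step as for the levels. Filled circles hold the Scx core and open circles do not, and the grey band marks 5 kb on either side. Close peaks crowd near the TSS of folding and prolyl hydroxylation genes, and *Plod2* and *Tll1* show the longest rows of peaks.

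In the folding group, peaks sat at the start of 3 of the 5 most abundant genes. The *Hspa5* peak was centred 291 bp and the *Pdia3* peak 239 bp downstream of the TSS, both in an exon of the gene. *Serpinh1* had a peak centred 7 bp upstream of its TSS, a further peak 6982 bp upstream and another 33887 bp downstream inside *Map6*. *P4hb* had no assigned peak, the nearest being centred at −8211 bp from its TSS, and the only peak assigned to *Ppib* was 48893 bp upstream in an intron of *Csnk1g1*. *Fkbp10* and *P3h4*, which are neighbours, shared a peak that lay 1065 bp upstream of the former and 204 bp into the latter. All 5 peaks assigned to *Tmem38b* were at least 195903 bp downstream, and each was also assigned to *Zfp462*.

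In prolyl hydroxylation, peaks were close to the TSS of *P4ha1* (138 bp downstream), *P3h2* (86 bp upstream), *P3h3* (546 bp downstream), *P3h4* and *Crtap* (266 bp downstream). The last 3 were centred in coding exons. *P3h2* had 3 more peaks in its introns, between 51893 and 71239 bp downstream, and *P4ha3* had 1 intronic peak at 11515 bp. *P4ha2* and *P3h1* had none.

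*Plod2* had the most peaks of the 35 genes, 10 in a domain of 1084 kb, 3 of them within 5 kb at 4302, 1282 and 466 bp upstream. The other lysyl enzymes held only the *Plod1* peak, 3844 bp upstream of its TSS. Of the export genes, *Sec23a* had an intronic peak 3032 bp downstream and 5 peaks at least 372285 bp away, and *Creb3l1* had an intronic peak at 11577 bp and 3 more within 50 kb. *Bmp1* had a peak 237 bp upstream and *Pcolce* a peak 79 bp downstream, whereas all 7 peaks of *Tll1* were at least 149356 bp away. Of the lysyl oxidases, *Loxl1* had a peak 3811 bp upstream, *Lox* a peak 66671 bp upstream with *Zfp474* nearer, and *Loxl4* 4 peaks from 26577 bp upstream. *Loxl2* and *Loxl3* had none.

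The sequence of the peaks was searched on both strands for the Scx core (CAGATG and its complement CATCTG, the palindrome CAGCTG, or the palindrome CATATG), which is part of the wider E-box CANNTG, and for TGGAAA or TTTCCA, the core bound by NFAT factors. A match describes letters in the window and is no measure of binding. The Scx core was in 37 of the 58 peaks (63.8%, 95% Wilson interval 50.9 to 74.9) against 60.3% of all peaks. In the 17 close peaks it was in 6 (35.3%, 17.3 to 58.7) against 33.5% of all peaks within 5 kb of a TSS, and in the other 41 it was in 31 (75.6%, 60.7 to 86.2) against 71.8% of all distant peaks. The shares were near the background in each class. The intervals cover counting error only. CAGATG or its complement was in 43.1% of the peaks of these genes, CAGCTG in 24.1% and CATATG in 10.3%, against 38.9%, 28.0% and 7.18% of all peaks.

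TGGAAA was in 4 of the 17 close peaks (23.5%, 9.56 to 47.3) against 10.8% of all close peaks. Neighbouring peaks 1282 and 466 bp upstream of *Plod2* are among these 4, so they do not all stand for separate genes. It was in 12 of the other 41 peaks (29.3%, 17.6 to 44.5) against 40.4% of all distant peaks. The close peaks were rich in G and C, with a median GC content of 65.5% and a CpG ratio (observed over expected) of 0.696, against 71.5% and 0.863 for all close peaks. The distant ones had medians of 45.5% and 0.198.

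The peaks upstream of *Plod2* are shown because this gene had the most close peaks, and because they differ in motif. The sequences are those of mm10 on the strand of the gene, with the Scx core and TGGAAA or TTTCCA in capitals. The peak 4302 bp upstream held 1 Scx core, and the 2 nearer ones, which overlap *Gm38391*, a transcript annotated with no coding sequence, held no core and 2 NFAT cores each.
Plod2, 4302 bp upstream, chr9:92537821-92538020: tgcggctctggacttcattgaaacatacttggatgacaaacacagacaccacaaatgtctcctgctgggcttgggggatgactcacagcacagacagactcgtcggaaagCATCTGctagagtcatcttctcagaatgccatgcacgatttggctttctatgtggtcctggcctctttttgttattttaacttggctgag
Plod2, 1282 bp upstream, chr9:92540841-92541040: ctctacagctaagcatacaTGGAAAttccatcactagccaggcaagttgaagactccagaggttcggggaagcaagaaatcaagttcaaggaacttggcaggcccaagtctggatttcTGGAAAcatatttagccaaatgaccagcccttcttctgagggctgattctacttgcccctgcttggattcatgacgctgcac
Plod2, 466 bp upstream, chr9:92541657-92541856: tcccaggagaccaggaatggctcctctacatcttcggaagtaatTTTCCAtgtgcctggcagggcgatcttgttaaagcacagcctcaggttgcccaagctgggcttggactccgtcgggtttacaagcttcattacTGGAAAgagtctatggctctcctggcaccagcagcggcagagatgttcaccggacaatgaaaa

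Among the close peaks, those of *Pcolce* and *Loxl1* had the most Scx cores, 3 each, and *P3h2* had 2 in a GC-rich promoter of CpG ratio 0.870. The CpG ratios of the *Pcolce* and *Loxl1* peaks were 0.274 and 0.239. They are shown, with the *Sec23a* peak that has 1 core and 3 NFAT cores, to set these arrangements side by side. *Loxl1*, *P3h2* and *Sec23a* were chosen after the motifs were seen. In *Sec23a* the core CAGATG runs into TGGAAA, so that these matches share the letters TG.
Loxl1, 3811 bp upstream, chr9:58316897-58317096: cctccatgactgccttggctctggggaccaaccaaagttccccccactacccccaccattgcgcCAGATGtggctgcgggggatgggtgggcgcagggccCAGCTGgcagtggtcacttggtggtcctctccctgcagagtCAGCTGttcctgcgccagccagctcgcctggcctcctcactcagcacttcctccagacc
P3h2, 86 bp upstream, chr16:26105770-26105969: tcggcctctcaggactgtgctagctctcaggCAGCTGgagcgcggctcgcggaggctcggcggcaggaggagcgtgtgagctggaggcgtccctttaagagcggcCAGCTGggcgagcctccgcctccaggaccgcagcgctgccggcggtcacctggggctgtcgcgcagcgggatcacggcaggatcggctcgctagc
Sec23a, 3032 bp downstream in an intron, chr12:59008885-59009084: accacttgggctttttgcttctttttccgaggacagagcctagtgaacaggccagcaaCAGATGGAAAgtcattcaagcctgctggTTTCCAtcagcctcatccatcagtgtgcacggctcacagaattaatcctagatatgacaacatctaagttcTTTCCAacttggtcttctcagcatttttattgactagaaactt

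Where more than 30 bases of a peak lie in exons of a protein-coding gene, only the 30 bases around a motif are shown. The *Pcolce* peak had its cores spread over the peak, the *Serpinh1* peak had a pair of TTTCCA separated by 2 bases and no Scx core, and the *Pdia3* peak had 1 core. The *Hspa5* peak held neither motif, and nor did those of *Crtap*, *Fkbp10*, *Fkbp7*, *P3h3*, *P4ha1*, *Plod1* and *Bmp1*.
Pcolce, first core, chr5:137611478-137611507: aagcactgtccCAGCTGtctccccgtcccg
Pcolce, middle core, chr5:137611402-137611431: ccggggctgcttCATCTGgtcctgattatc
Pcolce, last core, chr5:137611344-137611373: tgctgctgaactCAGCTGctgcttccagca
Serpinh1, chr7:99353182-99353211: cctccggaagcgTTTCCAacTTTCCAgaag
Pdia3, chr2:121414035-121414064: cgccatgcgcttCAGCTGcctagctctgct

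A peak near the gene went with no common direction of the expression difference. The 16 genes with a peak within 5 kb differed by −0.09 to 0.27 in log2(FPKM + 1), with a median of −0.01. The 7 genes with assigned peaks only farther away differed by −0.20 to 0.14, with a median of −0.03, and the 12 genes with no assigned peak by −0.29 to 0.29, with a median of 0.09. The ranges of the 3 sets overlap. *Colgalt2* and *Pcolce2*, the genes at the ends of the range, had no assigned peak. The nearest peak to *Colgalt2* was centred at −30451 bp from its TSS, outside its domain but within a window of 50 kb. Both genes had low levels, and their differences moved to 0.18 and −0.19 with a pseudocount of 5. Among genes with Scx cores in a close peak, *Pcolce* (3 cores) had the same mean in both groups. *Loxl1* (3 cores) and *P3h2* (2 cores) differed by 0.15 and 0.27. The peaks were mapped in whole forelimbs at E13.5 and the expression in sorted cells at E15.5, so that age and cell population differ between the assays.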

How the data were processed

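RNA-seq of sorted E15.5 cells and ChIP-seq of E13.5 forelimbs (3 samples per group) were analysed from the deposited tables. The submitters' processing notes name STAR 2.7.4, Subread, featureCounts, HOMER 4.11, edgeR, DESeq2 and mm10. The authors deposited the mean FPKM of each group. The 4 columns of the authors' own comparison (log2 fold change, p-value, FDR and status) were not used. The deposited peak table gives positions and a score that is 0 throughout, so peaks could not be ranked. By the methods, the authors called peaks per ChIP sample against input, merged them, and kept those past a fold over input of 4 and an FDR of 0.01 in an edgeR test of ChIP against input.

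Differences were taken on log2(mean FPKM + 1) with a threshold of 25%. No test was run, since the group means carry no spread. 2 rows with duplicated gene names were left out. Peaks were assigned with 21853 TSS of GENCODE M21, 1 per protein-coding gene, and 11666 genes of at least 1 FPKM had a TSS. Sequences were read from GRCm38 (pysam 0.24.0), and Wilson intervals were computed with scipy 1.17.1. In simulated data without noise, the code recovered planted differences of 1.5-fold, assignments of peaks and planted motifs. These simulations check the code only and hold no spread between samples. All collagen-making genes were named, and other pathway genes past a fold of 1.5 with a mean of at least 10 FPKM. Sequences were taken for close peaks of genes of at least 10 FPKM. The genes and lists were chosen with earlier results of these data known. The alternatives were the pseudocount, filter, fold, window, domain and TSS.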

Additional observations from a re-analysis of the deposited data

How the results depend on the processing

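No alternative could change the direction of a difference of at least 0.1. The sign does not depend on the pseudocount, and the median of all genes, subtracted in 1 setting, was only −0.000356. Most counts stayed within 1.5 times. The exceptions follow. With a pseudocount of 0.1 in place of 1, 1 of the 35 genes was lower (*Pcolce2*) and 1 was higher (*Colgalt2*) past the threshold. With a pseudocount of 5 the log2 differences of *Colgalt2*, *Pcolce2* and *Tll1* moved by over 1.5 times, from 0.29, −0.29 and −0.20 to 0.18, −0.19 and −0.11. Among the other pathway genes, 1 was higher (*Postn*) with a pseudocount of 5, and 3 were lower when a mean of at least 10 FPKM was required. At a fold of 1.5, 2 of them were lower (*Col11a2* and *Fmod*) and 0 were higher. With only the central 100 bp of each peak searched, the Scx core was in 46.6% of the peaks of the collagen-making genes and in 47.4% of all peaks. Genes with an assigned peak numbered 21 of 35 (60.0%, against 40.9% of genes of at least 1 FPKM) with domains extended by at most 100 kb, 18 (51.4% against 38.2%) when each peak went to its nearest TSS and 27 (77.1% against 54.1%) with domains of expressed genes. Genes with a close peak numbered 17 (48.6% against 28.3%) within 10 kb, 24 (68.6% against 52.1%) within 50 kb and 17 (48.6% against 27.2%) with any annotated transcript start. Among alternatives chosen after seeing the data, 11 (31.4% against 21.7%) had a peak within 1 kb and 12 (34.3% against 22.7%) a peak with no other protein-coding TSS nearer. No paired analysis was possible because the files hold group means, and for the same reason no replicate could be left out. Depth and the spread between samples are unknown.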
